A study of Rattus norvegicus with 3 samples.

Results

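Primary microcephaly is a congenital reduction of brain size. The 10 genes described here, Aspm, Wdr62, Cdk5rap2, Cenpj, Stil, Mcph1, Knl1, Cit, Kif14 and Cep152, are rat genes whose human counterparts are mutated in its recessive form. They were chosen by gene symbol, by a rule that uses no measured value, and all 10 have a row among the 29772 genes measured. They were followed over cycling progenitors and postmitotic neurons of the embryonic rat cerebral cortex. Cortical cells of wild-type rat embryos (Rattus norvegicus), freshly dissociated with papain, went into a droplet assay that reads the RNA of single cells (10x Genomics 3′ kit, Illumina NovaSeq). The submitters labelled 3 libraries with the embryonic days 14, 16 and 18. They are called E14, E16 and E18 here, after those labels, and each label has 1 library. The protocol text also covers expanded and multiplexed cultures and antibody sorting of human cells, which does not match primary rat tissue, and which of those steps applied here is not known. With 1 library per label no difference has a replicate check, so no p-value is given. Intervals are exact 95% intervals and cover counting error only.

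The products of these genes act on the machinery of cell division. Cep152, Stil and Cenpj build new centrioles, Cdk5rap2 organises the material around them, and Aspm and Wdr62 sit at the spindle poles. Knl1 is the kinetochore scaffold of the spindle checkpoint, Cit and Kif14 act at the midbody when the daughter cells separate, and Mcph1 restrains condensin-driven chromosome condensation and takes part in the DNA damage response. In the embryonic cortex the dividing cells are radial glia, the neural stem cells that line the ventricle, and intermediate progenitors, the neuron-producing daughters that divide away from it. Neurons have left the cell cycle.

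Promoter sequence was read for the members, since most of them were high together in cycling cells. RefSeq's promoter table for the assembly GRCr8 held 8 of the 10 (all but Mcph1 and Kif14), and 250 bases before each start were searched on both strands. The motifs are known from promoters of cell cycle genes. The CHR element was searched with the letters TTTGAA and with its known variant spelled TTCGAA. The CCAAT box was searched by its own letters. E2F-like sites were searched with the letters TTCCCGC and with 3 variants, of which the first was spelled TTGGCGC, another one was spelled TTCGCGC and the last one was spelled TTGCCGC. CHR letters stood in 4 of 8 members (Aspm, Knl1, Cit and Cep152) and in 17.3% of all 27457 promoters of that length. A CCAAT box stood in 5 of 8 (Aspm, Wdr62, Cenpj, Stil and Cep152) and in 34.3% of all promoters. E2F-like letters stood in 3 of 8 (Wdr62, Cdk5rap2 and Cep152) and in 7.97% of all promoters. A match is a run of letters and not a bound site. The table's start also lies inside the annotated gene for Cdk5rap2 (108 bases), Wdr62 (76) and Stil (33), so the stretches shown for these stop short of it, and the counted E2F-like match of Wdr62 and 1 CCAAT box of Stil run past that edge and are not shown as matches. It lies 7468 bases inside the annotated gene for Knl1, 3599 for Cenpj, 986 for Cit and 616 for Cep152, so their windows, with 3 of the 4 CHR matches, may not be the main promoter and are not shown. Of the 4 windows with more than 1 CCAAT box, those of Aspm, Wdr62 and Stil are shown, and for contrast Cdk5rap2, which had none, with matches in capitals. ATTGG is the CCAAT box read on the other strand. Each window ends where the gene's annotated transcribed part begins, 5′ to 3′ on the gene's strand, at chr13:53625334-53625583 (plus strand) for Aspm, chr1:94658098-94658271 (minus strand) for Wdr62, chr5:133757381-133757597 (plus strand) for Stil and chr5:88976006-88976147 (minus strand) for Cdk5rap2.
Aspm: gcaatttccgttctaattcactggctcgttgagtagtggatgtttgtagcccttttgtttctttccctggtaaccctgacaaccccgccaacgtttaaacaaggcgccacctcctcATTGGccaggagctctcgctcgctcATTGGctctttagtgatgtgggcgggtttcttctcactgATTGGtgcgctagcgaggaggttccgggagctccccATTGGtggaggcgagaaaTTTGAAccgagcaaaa
Wdr62: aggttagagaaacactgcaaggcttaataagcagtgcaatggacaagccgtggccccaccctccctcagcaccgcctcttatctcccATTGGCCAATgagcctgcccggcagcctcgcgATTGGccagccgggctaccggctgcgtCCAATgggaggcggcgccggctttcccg
Stil: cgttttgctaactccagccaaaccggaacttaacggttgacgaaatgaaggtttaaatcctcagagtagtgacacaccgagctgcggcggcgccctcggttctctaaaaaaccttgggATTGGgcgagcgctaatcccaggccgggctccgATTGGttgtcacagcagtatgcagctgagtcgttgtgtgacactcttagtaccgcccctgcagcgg
Cdk5rap2: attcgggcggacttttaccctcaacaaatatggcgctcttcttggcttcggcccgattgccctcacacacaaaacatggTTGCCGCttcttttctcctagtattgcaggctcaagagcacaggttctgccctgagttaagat
The Aspm stretch held 4 CCAAT boxes and 1 CHR match. The Wdr62 stretch held 4 CCAAT boxes, the Stil stretch 2, and the Cdk5rap2 stretch 1 E2F-like match.

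The files held 62740631 to 80974234 UMIs (unique molecular identifiers, counting captured molecules) per library. Of the barcodes, 4444, 5193 and 5690 in label order passed a minimum of 1000 genes and a maximum of 10% mitochondrial UMIs, and 4286, 4977 and 5431 remained after the highest doublet scores were removed. The libraries shared 12 to 17 cell barcodes in pairs. Cells were clustered without the members, and 23 of 25 clusters were named from marker genes, so class names are rebuilt here and are not the submitters'. Radial glia numbered 380, 2964 and 1757, intermediate progenitors 470, 414 and 1116, and postmitotic neurons 3348, 147 and 2325. The neurons comprised newborn, maturing and Cajal-Retzius cells and excitatory neurons that could not be split into newborn and maturing (847 in E18 and 1 in each other library). The cortical gene Emx1 stood at 78.1 to 158 CPM (UMIs per 1000000 UMIs of a group) in radial glia.

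The E16 library stands apart in 3 ways that touch the results below. Genes known to fall or rise with age in cortical progenitors did not run in label order: in radial glia Hmga2 stood at 12.5, 224 and 21.7 CPM in E14, E16 and E18, and Tnc at 119, 0.175 and 7.36 CPM. Most E16 radial glia lay in other clusters than most of those of E14 and E18. Of the 147 E16 neurons, 143 were Cajal-Retzius cells, the early-born reelin-secreting neurons of the cortical surface, and 590 further E16 cells with neuron markers formed cluster 12, which stayed unnamed and was led by Calb1, Calb2, Lhx9, Ebf1 and Nhlh2. No member's order across labels is therefore read as a course over age.

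A progenitor was called S or G2/M from summed UMIs of 42 S and 39 G2/M genes, none of them a member, after each cell had been thinned to 5000 UMIs. The cut for each list was 9 UMIs, the 95th percentile of the neurons of all libraries together. Above a cut lay 4.06%, 34.8% and 7.33% of the neurons in E14, E16 and E18. Cycling cells made up 67.0%, 99.1% and 88.6% of the progenitors that could be called in E14, E16 and E18. They numbered 537, 3201 and 2444. Too shallow to call were 48, 148 and 113 progenitors, and 130, 248 and 425 lay within 20% of a cut.

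All 10 members had a mean of at least 5 CPM over cycling progenitors and neurons in each library. In cycling progenitors 9, 7 and 9 of the 10 were at least 2-fold higher than in neurons of the same library in E14, E16 and E18, with 1 CPM added to both levels. Of all genes at that level, 17.6%, 14.7% and 15.1% were this much higher. Cycling cells were called from other genes of the cell cycle, by cuts set on the neurons of all libraries together. Part of the members' excess, and of their ratios over neurons below, is therefore set by the choice of cells. The shares over all genes do not offset that choice. The members' median log2 ratio was 3.77, 1.62 and 3.13, beside 0.15, -0.03 and 0.05 over all genes. The CPM ratios given below for each member carry no added CPM. In E14 they ran from 1.81 for Cenpj to 177 for Kif14, the latter over 6 neuronal UMIs. Levels are not scaled by gene length, because this kit counts 1 end of each molecule, and levels of different genes are not ranked here.

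**Figure D1:**
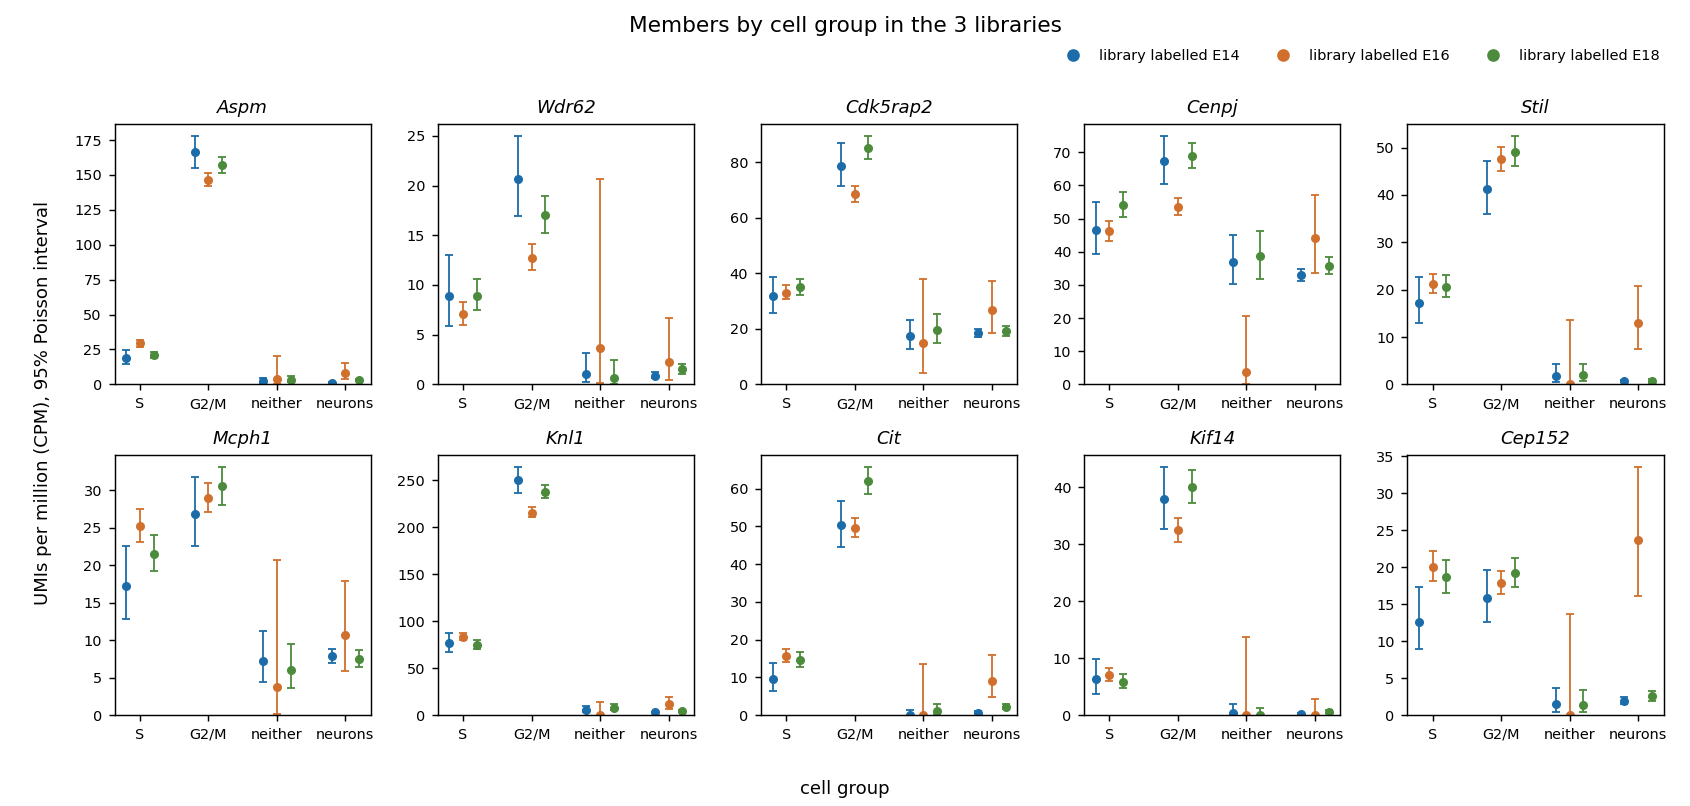
CPM of each member (one panel per gene, linear axis) in progenitors called S, G2/M or neither and in postmitotic neurons, by library (colours), with exact 95% Poisson intervals. G2/M cells are the highest group for 9 members in all 3 libraries, and for Cep152 the S and G2/M intervals overlap; Cenpj and Cdk5rap2 keep a clear level in neurons.

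Among the centriole genes, Stil, which recruits the cartwheel of a new centriole, was at 32.4, 36.9 and 36.5 CPM in cycling progenitors. In neurons it was at 0.666, 12.96 and 0.686 CPM, so it was nearly silent in 2 libraries and not in E16. The ratio was 48.7 (32.7 to 75.3), 2.85 (1.77 to 4.90) and 53.3 (32.7 to 93.5). Cep152, the scaffold that brings the kinase Plk4 to the mother centriole, was at 14.6, 18.8 and 19.0 CPM in cycling progenitors and at 1.92, 23.6 and 2.57 CPM in neurons. Its ratio was 7.60 (5.67 to 10.2) in E14 and 7.38 (5.66 to 9.78) in E18, but 0.794 (0.556 to 1.18) in E16, where the interval spans 1. Cep152 was the only member lower in cycling progenitors than in neurons, and only in E16.

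Cenpj, which sets centriole length, differed from the rest of the centriole group. It was at 59.7, 50.6 and 62.4 CPM in cycling progenitors and at 33.0, 44.2 and 35.8 CPM in neurons. Its ratio of 1.81 (1.63 to 2.01), 1.14 (0.882 to 1.51) and 1.74 (1.61 to 1.89) was the lowest of the members in E14 and E18. In E14 neurons held 68.3% of the Cenpj UMIs and 76.7% of all UMIs. Cycling progenitors held 25.0% of the Cenpj UMIs there and 15.5% of all UMIs. Cenpj was at 1.95 CPM in the 124 erythroid cells of E16.

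Cdk5rap2, which anchors microtubule-nucleating complexes at the centrosome, also kept a neuronal level. It was at 61.4, 54.1 and 63.1 CPM in cycling progenitors and 18.4, 26.7 and 19.3 CPM in neurons. The ratio of 3.34 (2.98 to 3.74), 2.03 (1.45 to 2.92) and 3.26 (2.95 to 3.62) was much alike in E14 and E18. With 1 CPM added, E16 fell just short of 2-fold at a log2 ratio of 0.99.

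The spindle pole genes were far lower in neurons. Aspm, which holds spindle microtubules at the poles, was at 112, 99.1 and 97.1 CPM in cycling progenitors and at 1.04, 8.39 and 3.13 CPM in neurons. Its ratio was 108 (79.3 to 151), 11.8 (6.60 to 23.7) and 31.0 (24.6 to 39.7), with intervals that do not overlap between any 2 libraries. The progenitor levels lay closer together than the neuronal ones. Cycling progenitors held 92.1%, 89.6% and 94.2% of all Aspm UMIs of a library, beside 15.5%, 69.6% and 52.8% of the UMIs of all genes. Wdr62, a partner of Aspm at the pole, was at 16.3, 10.4 and 13.5 CPM in cycling progenitors and 0.864, 2.29 and 1.4996 CPM in neurons. Its ratio was 18.9 (12.96 to 28.3), 4.56 (1.55 to 22.2) and 8.97 (6.36 to 13.04).

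Knl1, at the kinetochore, was at 186, 162 and 166 CPM in cycling progenitors and at 3.06, 11.4 and 4.37 CPM in neurons. The ratio was 60.9 (50.7 to 73.7), 14.2 (8.60 to 25.4) and 38.0 (31.2 to 46.7). The cytokinesis genes were low in neurons as a whole in E14. Kif14, a kinesin of the midbody, was at 26.2, 22.1 and 24.9 CPM in cycling progenitors and at 0.148, 0 and 0.557 CPM in neurons. Its ratio was 177 (80.0 to 488) in E14 and 44.8 (26.1 to 84.5) in E18. In E16, with no Kif14 UMI among 147 neurons, it was at least 9.67-fold higher over a floor of 3 UMIs. Cit, the gene of citron kinase, which acts at the cleavage furrow and midbody, also encodes a neuronal form without the kinase, and the counts per gene do not tell these apart. It was at 35.4, 35.9 and 41.2 CPM in cycling progenitors and 0.666, 9.15 and 2.19 CPM in neurons. The ratio was 53.1 (35.7 to 81.9), 3.93 (2.24 to 7.62) and 18.9 (14.3 to 25.4), and the neuronal part lay largely in Cajal-Retzius cells, as described below.

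Mcph1, without which chromosomes condense too early, differed less. It was at 23.3, 27.4 and 26.5 CPM in cycling progenitors and 7.85, 10.7 and 7.498 CPM in neurons. The ratio of 2.97 (2.47 to 3.56), 2.57 (1.53 to 4.71) and 3.54 (3.01 to 4.18) was the most even over the libraries, with intervals that overlap in every pair.

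**Figure D2:**
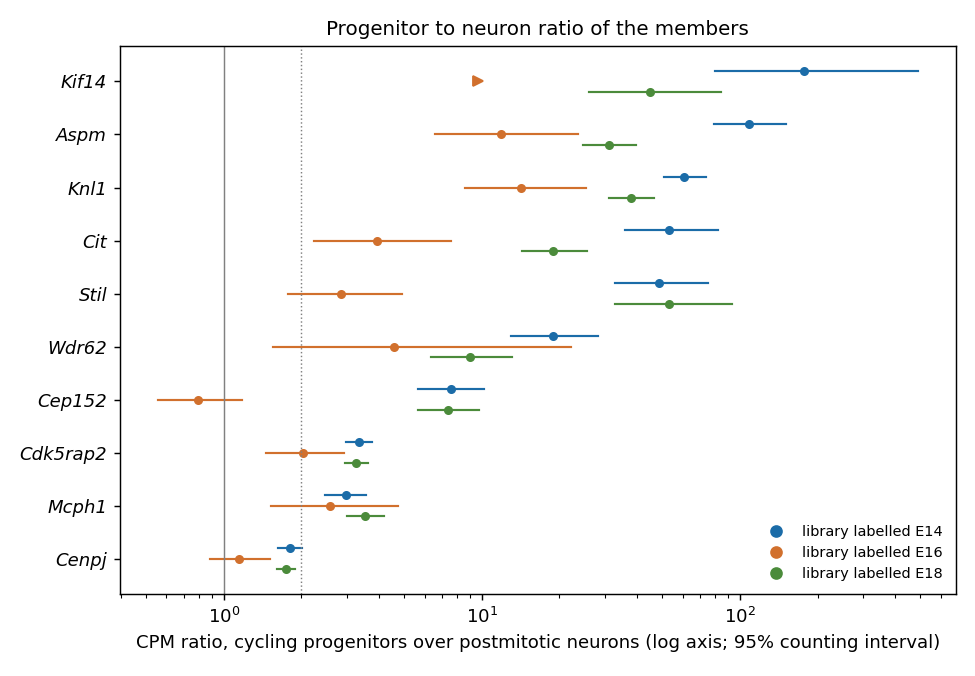
CPM ratio of cycling progenitors over postmitotic neurons for each member (rows) on a log axis, with exact 95% counting intervals, by library (colours); the triangle is the lower bound for Kif14 in E16 and the dotted line is 2-fold. Ratios in E14 run from 1.81 for Cenpj to 177 for Kif14, and for the 9 members with a UMI in E16 neurons the E16 ratio against those neurons is the lowest of the 3 libraries.

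The E16 comparison depended on which cells stood for neurons. Markers of radial glia were higher in E16 neurons: Sox2 was at 17.5 CPM there against 7.26 and 11.2 CPM in E14 and E18, and Pax6 at 75.5 CPM against 14.9 and 33.8 CPM. In cluster 12 of E16 Pax6 was lower, at 36.6 CPM, but Sox2 was not, at 21.9 CPM. In Cajal-Retzius cells of E14 and E18 Sox2 was at 0 and 30.7 CPM and Pax6 at 15.7 and 96.7 CPM. The proliferation gene Mki67 was at 24.4 CPM in E16 neurons against 2.96 and 8.01 CPM, beside the larger share of E16 neurons above a phase cut. Their part in the E16 levels was not tested. Against the 590 cells of cluster 12, 9 of 10 members were at least 2-fold higher in E16 cycling progenitors, where 15.7% of all genes were, and the median log2 ratio was 3.03 against 0.06 for all genes. Cep152 was then 8.43-fold higher (4.80 to 16.4), close to its value in the other libraries, and Aspm 24.3-fold (16.01 to 38.8). Cenpj was again the lowest, at 1.63-fold (1.39 to 1.92). A looser filter (500 genes, 20% mitochondrial) gave 727 E16 neurons, and the E16 log2 ratio over neurons went from 1.44 to 3.09 for Stil, from 1.86 to 3.32 for Cit, from 3.41 to 4.50 for Aspm, from 3.71 to 4.84 for Knl1 and from -0.32 to 1.41 for Cep152. With at least 2000 genes and at most 5% mitochondrial UMIs per cell, the count fell to 3 of 10 in both E14 and E18. That filter left 322 of 4286 cells in E14, and the 108 cells then named neurons carried Mki67 at 285.5 CPM, against 2.96 CPM in the neurons described here, so the neuron class itself was no longer the same. The log2 ratio over these neurons fell to 0.82 from 5.79 for Aspm in E14 and to 0.44 from 4.57 in E18, to 0.91 from 5.53 and to 0.82 from 4.96 for Knl1, and to 0.33 from 4.57 and to 0.19 from 4.06 for Kif14.

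Progenitors called neither S nor G2/M lay, by that definition, below the neurons' 95th percentile for both cell cycle lists, so a low level of the members there is partly set by the choice of cells. In E14 and E18 (265 and 316 cells) none of the 10 was at least 2-fold apart from neurons in either direction, where 25.1% and 20.4% of all genes were. Only 3 and 4 members had a mean of 5 CPM there, so most were too low for a difference to be seen. Aspm was at 2.18 and 3.33 CPM in these cells, Knl1 at 5.81 and 7.99 CPM, and Cenpj at 37.0 and 38.6 CPM. In E16 only 29 progenitors were in neither phase, with no UMI of Stil, Knl1, Cit, Kif14 or Cep152. At that size 6 members, 5 of them with a mean of 5 CPM, were at least 2-fold lower than in neurons, where 20.7% of all genes were lower.

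Cit was higher in Cajal-Retzius cells than in other excitatory neurons of E14 and E18 and than in cluster 12 of E16, and Cep152 was so in E16 and E18. These cells numbered 16, 143 and 68 and held 20, 12 and 32 UMIs of Cit, or 62.8, 9.31 and 36.4 CPM. Cit was 361-fold (147 to 1010) higher than in other excitatory neurons in E14 and 43.1-fold (23.7 to 80.4) in E18. In E16, where cluster 12 was the only other neuron-like group of size, it was 3.86-fold (1.61 to 9.17) higher, while the 74 GABAergic cells of E16 had Cit at 11.9 CPM (7 UMIs). In cycling progenitors Cit was at 35.4, 35.9 and 41.2 CPM. Kif14, which also acts at the midbody, had no UMI in the Cajal-Retzius cells of any library. Cep152 was at 3.14, 24.1 and 14.8 CPM, 10.8-fold (5.39 to 23.1) above cluster 12 in E16 and 7.07-fold (3.51 to 13.3) above other excitatory neurons in E18. In E14 it rested on 1 UMI. Of all 10 members, 2, 4 and 3 were at least 2-fold higher in Cajal-Retzius cells, and of these 1, 4 and 2 had a mean of 5 CPM. Of all genes at that mean, 14.4%, 6.54% and 10.6% were this much higher. In E14, 3 members (Aspm, Knl1 and Mcph1) were at least 2-fold lower, 1 of them at that mean, and none was in E16 or E18, where 13.8%, 3.03% and 4.91% of all genes were lower. These E14 calls rest on 0, 0 and 1 UMIs in the 16 Cajal-Retzius cells. The median log2 ratio was -0.65, 0.75 and 0.33, beside 0.06, 0.06 and 0.07 over all genes.

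The Cep152 signal followed a subset of these cells. Of the Cajal-Retzius cells, 49 in E16 and 14 in E18 lay above a phase cut. They carried Cep152 at 54.6 and 46.1 CPM, against 8.47 and 5.87 CPM in those below both cuts. Cenpj was at 90.9 and 51.2 CPM against 15.7 and 16.2 CPM, and Stil at 31.8 and 20.5 CPM. Aspm reached 18.2 and 20.5 CPM, far below its level in G2/M progenitors, and Kif14 had no UMI in either library. Cep152 was thus above its level in cycling progenitors (18.8 and 19.0 CPM) in both libraries, and Cenpj in E16. Aspm and Kif14 were below theirs. Stil, and Cenpj in E18, were lower in value only. Those called G2/M had Stil at 34.2 CPM (10 UMIs, 16.4 to 62.9) in E16 and 26.3 CPM (4 UMIs, 7.18 to 67.4) in E18. They had Cenpj at 59.3 CPM (9 UMIs, 27.1 to 112.5) in E18. Each of these intervals spans the level in cycling progenitors. Cit did not follow the cut: it was at 6.82 and 30.7 CPM above it and at 10.9 and 38.2 CPM below both cuts. Also read, and picked after these values were seen, were genes known from multiciliated cells, 4 of which are given. Proliferation genes were read in these cells too and are not given. Above a cut Gmnc was at 116 and 30.7 CPM, Mcidas at 143 and 71.7 CPM, Ccno at 211 and 66.6 CPM and Foxj1 at 189 and 51.2 CPM. In those below both cuts they were at 19.4 and 4.40, 14.5 and 4.40, 35.1 and 11.7, and 20.6 and 13.2 CPM, and in cycling progenitors at most at 2.498 CPM. Their part in the result was not tested, nor was that of doublets with other cells.

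**Figure D3:**
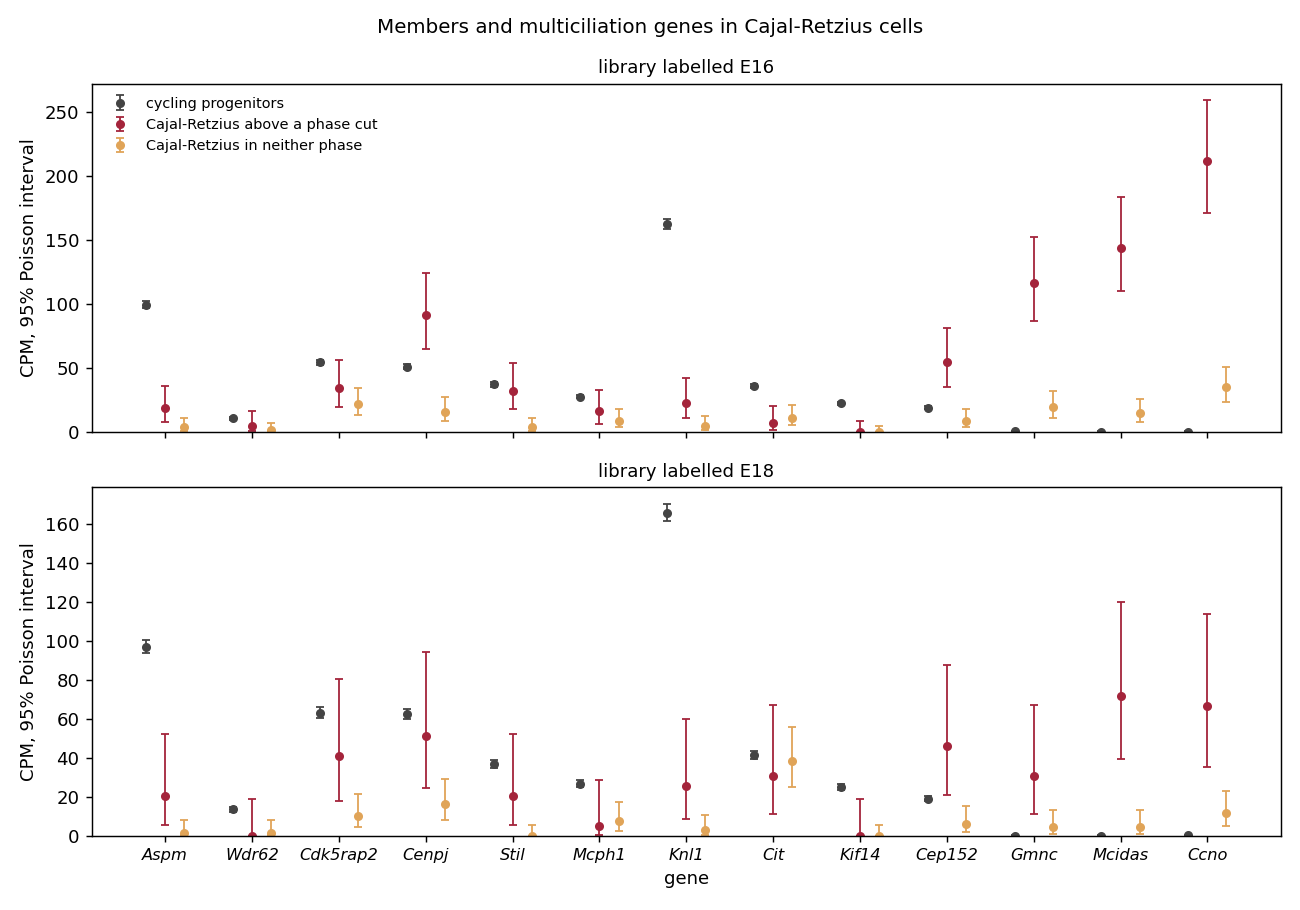
CPM (vertical axis, linear) of the members and of 3 multiciliation genes (horizontal axis) in cycling progenitors, Cajal-Retzius cells above a phase cut and Cajal-Retzius cells in neither phase (colours) in E16 and E18 (panels), with exact 95% Poisson intervals. Cep152, Cenpj and Stil are high above a cut (Cep152 54.6 CPM in E16 and 46.1 CPM in E18) while Kif14 is at 0.

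Within progenitors, 7, 6 and 6 of the 10 members were at least 2-fold higher in G2/M than in S cells in E14, E16 and E18, where 2.36%, 1.83% and 2.52% of all genes were. The phase calls rest on other genes of the same cell cycle program, so the groups were formed to differ in genes of that program. The median log2 ratio over the members was 1.25, 1.08 and 1.24, beside 0.00, 0.06 and 0.03 over all genes. At the stricter cell filter the count was 4 in E14 and 3 in E16, and at the looser filter it was 3 in E16. In E16 the stricter filter also turned the direction of Kif14 and Cdk5rap2, to log2 ratios of -1.04 and -0.10 from 2.06 and 1.03.

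Among the members Aspm had the highest G2/M over S ratio in each library. The stricter filter took its E16 log2 ratio from 2.28 to 0.97, under 2-fold and below Wdr62 (1.75), Knl1 (1.22) and Mcph1 (1.19). With the filter used throughout, Aspm was at 18.9, 29.4 and 21.0 CPM in S and 166, 147 and 157 CPM in G2/M cells, a ratio of 8.80 (6.73 to 11.7), 4.99 (4.58 to 5.45) and 7.46 (6.65 to 8.41). The cytokinesis genes came next. Kif14 was at 6.29, 7.01 and 5.89 CPM in S and 37.8, 32.4 and 40.0 CPM in G2/M, a ratio of 6.01 (3.75 to 10.2), 4.62 (3.87 to 5.56) and 6.79 (5.45 to 8.56). Cit was at 9.60, 15.8 and 14.7 CPM in S and 50.4, 49.7 and 62.1 CPM in G2/M, a ratio of 5.25 (3.57 to 7.99), 3.15 (2.79 to 3.57) and 4.23 (3.66 to 4.90). For each of the 10 members the E16 ratio was the lowest of the 3 libraries. Knl1 was at 76.5, 83.5 and 75.2 CPM in S and 250.3, 216 and 238 CPM in G2/M, a ratio of 3.27, 2.58 and 3.16.

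Cdk5rap2 and Stil formed a middle step of slightly over 2-fold. Cdk5rap2 was at 31.8, 33.1 and 35.0 CPM in S and 78.7, 68.4 and 85.3 CPM in G2/M, a ratio of 2.48, 2.07 and 2.44. Stil was at 17.2, 21.3 and 20.6 CPM in S and 41.3, 47.6 and 49.1 CPM in G2/M, a ratio of 2.40, 2.24 and 2.39. Wdr62 lay at this step too, at 8.94, 7.06 and 8.93 CPM in S and 20.7, 12.7 and 17.0 CPM in G2/M. Its ratio of 2.31 (1.503 to 3.67), 1.80 (1.48 to 2.20) and 1.91 (1.55 to 2.35) passed 2-fold in E14 only.

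Mcph1, Cenpj and Cep152 differed least between the phases. Mcph1 was at 17.2, 25.2 and 21.5 CPM in S and 26.8, 29.0 and 30.5 CPM in G2/M. Cenpj was at 46.7, 46.3 and 54.1 CPM in S and 67.4, 53.5 and 68.9 CPM in G2/M, a ratio of 1.44, 1.16 and 1.27. Cep152 was at 12.6, 20.1 and 18.7 CPM in S and 15.8, 17.9 and 19.2 CPM in G2/M, a ratio of 1.26 (0.846 to 1.90), 0.890 (0.781 to 1.02) and 1.03 (0.879 to 1.21) whose interval spans 1 in every library. Of the 3 genes that build centrioles, Stil passed 2-fold between the phases in each library, and Cenpj and Cep152 in none. At the stricter cell filter the log2 ratio of Stil was 0.44 in E14 and 0.78 in E16, under 2-fold.

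Progenitors were also binned by the summed G2/M genes, in multiples of the cut. Cells called S made up 24.5%, 88.8% and 56.2% of those at or below the cut in E14, E16 and E18. Between 1 and 2 times the cut they made up 67.0%, 96.8% and 84.3%. The lower bins are therefore not an early part of G2/M, and the lowest differs in make-up between libraries. From progenitors at or below the cut to those over 8 times the cut, Aspm went from 2.90 to 274.7 CPM in E14, from 6.56 to 227 CPM in E16 and from 3.16 to 243 CPM in E18. It was still at 14.4 to 18.6 CPM between 1 and 2 times the cut, so most of its level came in the last steps. Cep152 was near its later level just above the cut, at 13.8, 19.3 and 20.0 CPM between 1 and 2 times the cut, and stood at 16.7, 18.7 and 19.7 CPM over 8 times. Kif14 went from 0.264, 0.656 and 0.132 CPM to 65.6, 49.2 and 62.5 CPM. Cenpj went only from 37.2, 27.5 and 36.6 CPM to 75.4, 57.4 and 77.6 CPM, since it was present in cells below the cut.

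**Figure D4:**
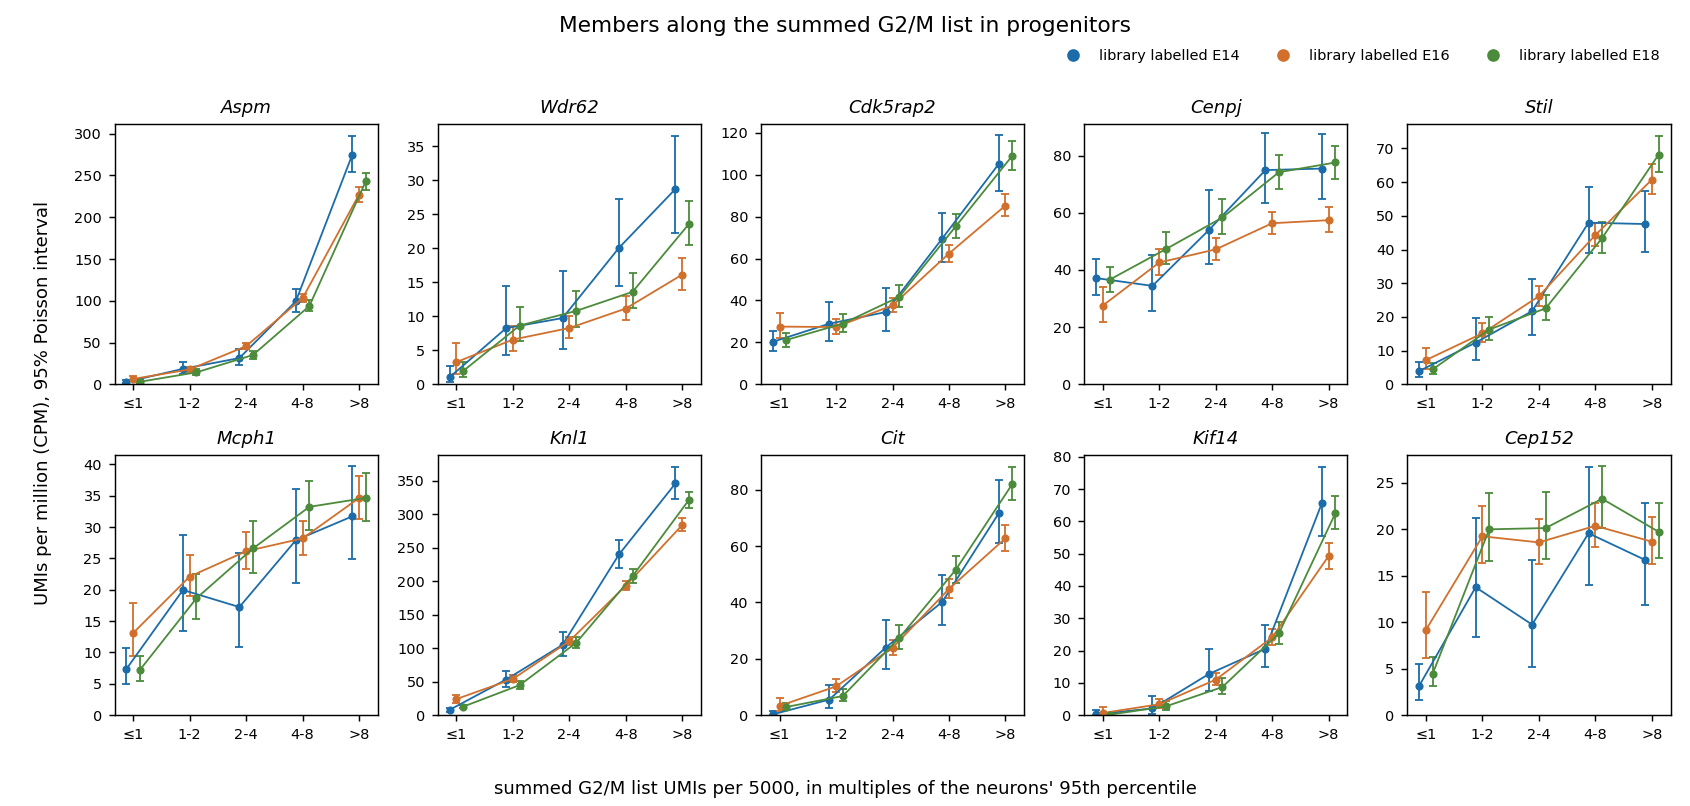
CPM of each member (panels, linear axis) in progenitors binned by summed UMIs of the G2/M list in multiples of the cut (horizontal axis), by library (colours), with exact 95% Poisson intervals. Aspm climbs to 227 to 274.7 CPM in the last bin, while the Cep152 intervals within a library overlap from the second bin on, and its levels are 16.7 to 19.7 CPM in the last.

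At equal depth the share of cells with a UMI gave the same contrast. With 5000 UMIs per cell, 84.9%, 90.8% and 87.1% of G2/M progenitors had a UMI of at least 1 member, and 57.1%, 65.6% and 58.9% of S cells had one. In neurons, the background group, the share was 26.7%, 38.3% and 31.5%. Before thinning, G2/M cells had 90.9%, 97.0% and 93.0% at medians of 14283, 15298.5 and 13794 UMIs, and neurons 49.7%, 55.1% and 48.7% at 11047.5, 8407 and 8985 UMIs. Thinning left out 125, 6 and 75 neurons as too shallow. At least 3 members were seen together in 47.5%, 43.0% and 46.2% of thinned G2/M cells and in 0.22%, 6.38% and 0.36% of neurons (before thinning 76.1%, 81.7% and 77.3%, and 2.39%, 12.9% and 1.98%). At 5000 UMIs the ratio of the G2/M share to the neuronal share was thus larger for at least 3 members, over 7, 9 and 8 neurons. The gap between these shares was larger for at least 1 member, and before thinning it was larger for at least 3.

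For single members, Aspm was found in 44.3%, 44.0% and 44.0% of thinned G2/M cells and in 0.47%, 2.84% and 1.38% of neurons (before thinning 64.8%, 74.6% and 68.2%, and 1.22%, 6.12% and 2.62%). Cep152 was found in 6.92%, 7.52% and 8.35% of thinned G2/M cells and in 0.87%, 11.3% and 1.47% of neurons. For Cep152 the G2/M share in E16 was thus below the neuronal one in value. That neuronal share rests on 141 thinned neurons, nearly all of them Cajal-Retzius cells. Depth limits such shares, since 1 UMI among 5000 corresponds to a level above that of every member but Knl1 in G2/M cells.

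Radial glia and intermediate progenitors were compared within G2/M, so that a different share of dividing cells would not enter. Cenpj was the 1 member at least 2-fold apart, in each library, and it was higher in intermediate progenitors. It was at 45.7, 46.0 and 50.2 CPM in G2/M radial glia and 108, 114 and 115 CPM in G2/M intermediate progenitors, 2.36-, 2.47- and 2.30-fold higher in the latter. The ratio of radial glia over intermediate progenitors was 0.424 (0.341 to 0.527), 0.405 (0.360 to 0.456) and 0.435 (0.390 to 0.486), with intervals that overlap between libraries, although most E16 radial glia lay in other clusters. Of all genes, 17.1%, 14.4% and 15.3% were at least 2-fold apart in either direction, and 5.73%, 5.53% and 5.57% were lower in radial glia, so 1 of 10 is no more than the background. The members' median log2 ratio was -0.12, -0.13 and -0.35, beside 0.12, 0.11 and 0.11 over all genes.

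The Cenpj difference was also seen in S cells, at 36.3, 43.0 and 39.5 CPM in radial glia against 59.3, 96.8 and 86.0 CPM in intermediate progenitors, a ratio of 0.611 (0.430 to 0.864), 0.444 and 0.459. In progenitors of neither phase it was at 18.8 and 13.2 CPM in radial glia of E14 and E18 and at 40.8 and 46.1 CPM in intermediate progenitors. Newborn neurons had 38.8 and 51.7 CPM and maturing neurons 31.5 and 27.4 CPM in the same libraries. Intermediate progenitors were thus above radial glia in each state that had cells to compare in these libraries, while newborn neurons of E18 were above the intermediate progenitors of neither phase. No other member did so by 2-fold in G2/M. Stil and Knl1 were lower in radial glia in all 3 libraries, at ratios of 0.686, 0.727 and 0.757 for Stil and 0.816, 0.819 and 0.759 for Knl1. Aspm was equal or nearly so, at ratios of 1.15, 1.01 and 1.00. Cit was lower in E14 and higher in the others, at 0.894, 1.24 and 1.30.

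**Figure D5:**
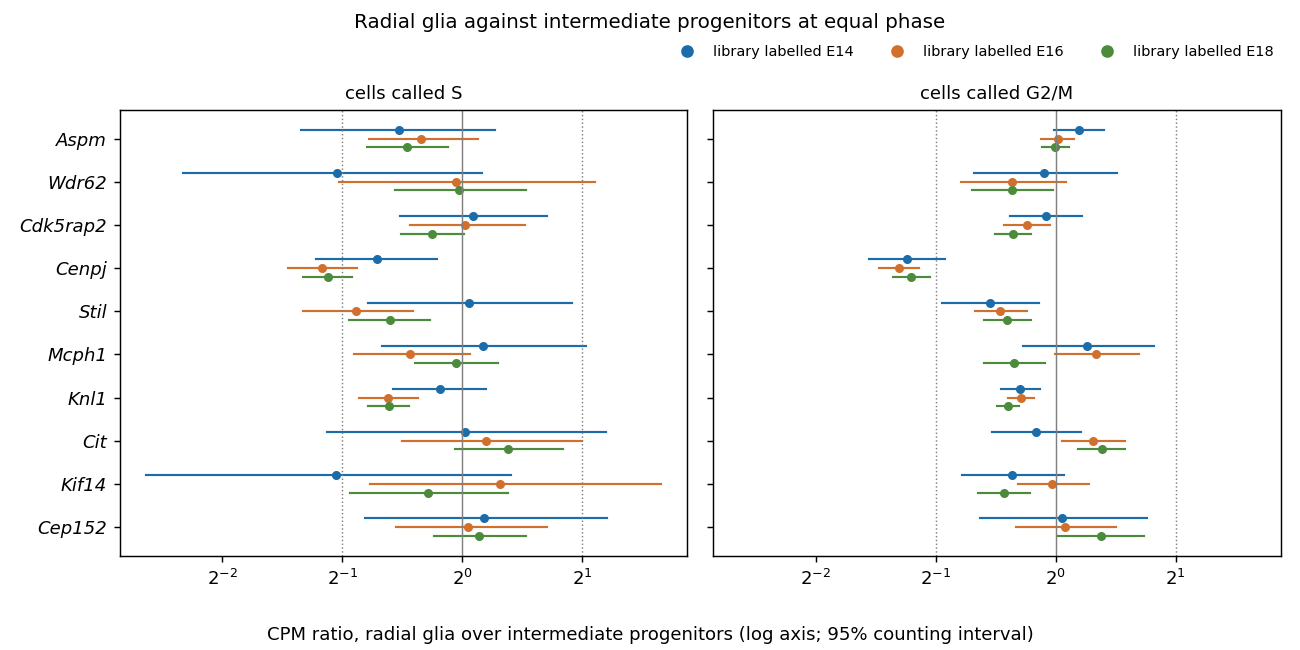
CPM ratio of radial glia over intermediate progenitors for each member (rows) in cells called S (left) and G2/M (right), on a log axis with exact 95% counting intervals, by library (colours). Cenpj lies beyond 2-fold (dotted line) in G2/M in all 3 libraries, at 0.405 to 0.435, and the other members lie nearer to 1 in G2/M; in E14 S cells Kif14 (0.482) and Wdr62 (0.486) lie beyond the line with intervals that span 1.

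In G2/M radial glia none of the 10 was at least 2-fold apart in any pair of libraries, where 10.0% (E16 over E14), 4.53% (E18 over E14) and 2.8% (E18 over E16) of all genes were. A count of 0 of 10 is near those shares. The largest differences were those of Wdr62 and Cit. Wdr62 was at 20.2, 12.3 and 15.7 CPM, 0.612 (0.470 to 0.807) in E16 over E14. Cit was at 48.4, 50.8 and 66.6 CPM, 1.38 (1.16 to 1.64) in E18 over E14 and 1.31 (1.204 to 1.43) in E18 over E16. Aspm was at 174, 147 and 157 CPM and Knl1 at 232, 211 and 218 CPM. The median log2 ratio was -0.04, 0.05 and 0.14 over the members and -0.10, -0.04 and 0.07 over all genes. At the stricter cell filter 2 members were at least 2-fold apart in E18 over E14.

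The members were also found in other cell classes of the tissue. Meningeal fibroblasts (120 cells in E16, 39 in E18) had Aspm at 31.0 and 32.5 CPM and Knl1 at 81.2 and 82.0 CPM. Choroid plexus cells (141 and 52 cells) had Aspm at 40.1 and 12.3 CPM and Cep152 at 33.0 and 17.2 CPM, beside 18.8 and 19.0 CPM of Cep152 in cycling progenitors. GABAergic cells (55, 74 and 72) had no Aspm or Kif14 UMI in any library, while Cenpj was at 27.0, 20.4 and 30.8 CPM and Cdk5rap2 at 30.0, 34.0 and 21.3 CPM. So Cenpj and Cdk5rap2 were detected in both neuron lineages.

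Over 30 groups of class, phase and library, each gene of at least 5 CPM (10516 in all) was correlated with each member on log2(CPM + 1). The groups share libraries and depth and were formed by the phase lists, so Pearson's r is a description only. Nearest to Aspm were Cenpf (r = 0.977), Cep55 (0.976) and Ttk (0.974), and Cenpf and Ttk belong to the G2/M list. Nearest to Stil were Knl1 (0.982), Cenpt and Mki67, and to Knl1 they were Stil, Mis18a and Oip5. For Wdr62 they were Cip2a (0.971), Mis18a and Esco2, and for Kif14 Kif20b (0.967), Nuf2 and Birc5. Mki67, Kif20b and Birc5 also belong to the G2/M list. Cdk5rap2 was nearest to Ska2 (0.965), Nup133 and LOC120095166, Mcph1 to Rfc4 (0.947), Atad5 and Zranb3, and Cep152 to Melk (0.920), E2f7 and Lin54. Cenpj had Jade1 (0.933), C2h5orf34 and Aaas, and Cit had Mybl1 (0.872), Spdl1 and Ska3. Cit thus had the lowest nearest value of the members. Among the members themselves the pairs ran from 0.424 (Cenpj and Cit) to 0.982 (Stil and Knl1).

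Related genes of the same machinery, from lists that share some symbols, were read beside the 17.6%, 14.7% and 15.1% of all genes that were at least 2-fold higher in cycling progenitors than in neurons. The choice of cycling cells by cell cycle genes enters these ratios as it does those of the members. Of 10 cytokinesis genes, 10, 9 and 9 were this much higher, or 9, 8 and 8 of the 9 with a mean of 5 CPM, with medians of 5.78, 3.38 and 4.87 on the log2 scale. Prc1, which bundles the central spindle, reached 6.99, 4.25 and 5.46 and Kif4a 6.07, 3.32 and 5.28. Lowest by the median over the libraries, among those with a mean of 5 CPM, were Kif23 of the central spindle (5.77, 3.43 and 4.49) and the furrow GTPase Rhoa (1.28, 0.44 and 0.86). Of 12 genes of the Knl1 network and checkpoint, 10 were higher in each library, with medians of 4.29, 2.78 and 3.91. Ndc80, of the microtubule-binding complex, reached 5.97, 3.04 and 5.31 and the checkpoint gene Bub1b 5.67, 3.61 and 4.91, while Mis12 had 0.71, 0.38 and 0.58 and Zwint -0.47, -0.54 and -0.67. Of 8 condensin genes, 8, 7 and 7 were higher, with medians of 3.58, 2.53 and 3.48. Ncapg (4.96, 4.03 and 4.73) and Ncaph (5.31, 3.82 and 4.33) led, and Ncapd3 (2.52, 1.97 and 2.60) and Ncaph2 (1.13, 0.84 and 0.97) were the least changed.

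Of 15 centriole assembly genes, 8, 3 and 6 were at least 2-fold higher in cycling progenitors, with medians of 1.30, 0.31 and 0.88, and 3 of 15 in E16 is near the 14.7% of all genes there. Plk4, the kinase that starts centriole duplication, was at 70.7, 69.8 and 68.4 CPM in cycling progenitors and 0.617, 30.5 and 10.9 CPM in neurons, low in E14 and high in E16 as Stil and Cep152 were. Poc1a had log2 ratios of 2.31, 1.66 and 2.38, while the centriole lumen genes Cetn2 (0.05, -0.23 and -0.21) and Poc5 (0.29, -0.16 and -0.17) were near equal in both groups. Of 15 genes of the pericentriolar material and spindle pole, 8, 5 and 7 were higher, with medians of 1.00, 0.65 and 0.93. Tpx2 (6.83, 3.84 and 5.46) and Plk1 (5.30, 3.29 and 4.92), both of the mitotic spindle, led, and Akap9 (-0.27, -0.76 and -0.43) was last. Of 20 other loci known for primary microcephaly, 11, 11 and 10 were at least 2-fold higher and 1, 2 and 1 lower, with medians of 1.17, 1.22 and 1.06. The cell cycle kinase Cdk6 was at 163, 121 and 128 CPM in cycling progenitors and 5.31, 2.29 and 11.6 CPM in neurons, and the kinetochore motor Cenpe at 193, 138 and 183 CPM and 1.92, 25.9 and 4.71 CPM. Trappc14 (-1.0005, -1.27 and -1.18) was at least 2-fold lower in each library and Wdfy3 (0.09, -1.23 and -0.38) in E16, where 12.3%, 17.1% and 13.2% of all genes were this much lower in E14, E16 and E18.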

How the data were processed

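Single-cell libraries of embryonic rat cortex, 1 per label, were used as deposited. The deposited matrices hold raw counts of UMIs per gene and cell barcode, and per the submitters' processing notes they were made with Cell Ranger 6.0.1 on mRatBN7.2. The annotation is not given in the sources used here. All other steps were computed from these counts in Python 3.11.15 with matplotlib 3.10.9, igraph 0.11.9, leidenalg 0.10.2, pandas 2.3.3, numpy 2.4.6, scikit-learn 1.9.0, scipy 1.17.1 and scanpy 1.11.5.

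Total counts were 62740631, 80974234 and 73727823. Cells needed at least 1000 genes and at most 10% mitochondrial UMIs, and the highest Scrublet scores were removed at 0.8% per 1000 cells (158, 216 and 259 cells). Cells were clustered together, with no integration, on 2000 variable genes (members, pathway lists and stage genes left out), 30 principal components and 15 neighbours at Leiden resolution 1, and clusters were named from 112 marker symbols of 14 classes. A name needed at least 3 markers raised 1.2-fold and found in 20% of the cells, with no other class ahead among the 10 leading genes.

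UMIs were summed per class, phase and library. Levels carry exact Poisson intervals, ratios exact conditional intervals and shares Clopper-Pearson intervals (95%), which describe these libraries and leave out variation between embryos. The interval and ratio steps were tested on simulated data. A gene counted as at least 2-fold apart with 1 CPM added, and shares over all genes use those with a mean of at least 5 CPM over both groups. Named genes are the members, their 3 nearest genes by correlation, the 2 highest and 2 lowest of each pathway list by the median ratio, and 6 stage genes. Marker genes were read as checks of the classes, and Gmnc, Mcidas, Ccno and Foxj1 were picked after values were seen. One gene that this rule names is not reported here. Of the stage genes not printed in the report, Lin28b, Crabp2, Aldoc and Apoe are given among the other observations. Members and lists were chosen with earlier results of these data known. Alternatives covered the cell filter, doublets, clustering, phase call, pseudocount, denominator, background and thinning. Comparing E16 with cluster 12 was added after seeing the data.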

Additional observations from a re-analysis of the deposited data

How the results depend on the processing

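No paired analysis was possible because each label has 1 library and no replicate number, and for the same reason no library could be left out of a group. The counts of members past 2-fold stayed within 1.5 times those given with 5 CPM added, at both Leiden resolutions, with each library clustered on its own, at the 99th percentile, with scanpy's phase scores, without mitochondrial and globin UMIs, and with no doublet removal or removal at 2 times the rate. The cell filter changed them. At 2000 genes and 5% mitochondrial UMIs, members higher in cycling progenitors than in neurons numbered 3 in E14 and 3 in E18, members higher in G2/M than in S cells 4 in E14 and 3 in E16, and members apart between E18 and E14 in G2/M radial glia 2. The G2/M over S log2 ratio then changed sign in E16 for Cdk5rap2 (-0.10) and Kif14 (-1.04), both past 2-fold before, and, of members under 2-fold, for Cenpj in E14 (-1.02), E16 (-0.57) and E18 (-0.12) and for Mcph1 (-0.09) and Cep152 (-4.64) in E14. That filter kept 322, 3554 and 2617 cells and left 2322 E16 cells unnamed, and gave no value for radial glia against intermediate progenitors or for the pairs of libraries with E16. At 500 genes and 20%, members higher in G2/M than in S cells numbered 3 in E16. The share of G2/M progenitors with a UMI of a member was 65.7%, 66.6% and 68.0% at 2000 UMIs and 90.9%, 97.0% and 93.0% without thinning. With cluster 12 counted among the neurons, a choice made after seeing the data, 9 members were higher in E16 cycling progenitors. Cep152 in E16, cycling progenitors over neurons, ran from -0.53 to 1.44 on the log2 scale and was above 0 under 4 of 12 alternatives. Wdr62 in the same comparison went from 1.80 to 0.75 at Leiden resolution 0.5, under 2-fold.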

Other observations

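Cluster 15, which stayed unnamed, was led by the patterning genes Fgf17 and Fgf8 and held 379 cells of E16 and 40 of E18. It had Aspm at 57.2 and 55.6 CPM, Knl1 at 97.6 and 77.5 CPM and Cep152 at 12.5 and 10.1 CPM. In radial glia the other stage genes were at 0, 6.72 and 1.00 CPM for Lin28b, 7.31, 109 and 45.9 CPM for Crabp2, 727, 16.9 and 240 CPM for Aldoc and 65.2, 4.88 and 13.8 CPM for Apoe in E14, E16 and E18, with E18 between the others for each of these 4. In E16 erythroid cells (124 cells), Knl1 was at 11.96 CPM and Aspm at 3.66 CPM.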
